A study of Mus musculus with 12 samples.

Results

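Oligodendrocyte and myelin genes were followed through the hippocampus of mice as a set of 34 named genes, chosen by symbol to span the lineage from precursor cell to myelinating oligodendrocyte, and 34 of the 23382 rows of the gene table matched them. The 34 genes fall into 10 myelin sheath protein genes, 5 lipid and membrane enzymes, 5 transcription factors, 12 receptors, enzymes, cytoskeletal and stress proteins, and 2 precursor cell genes. The rule names genes by symbol and holds no measured value, but the set was drawn up with earlier results of these data known. RNA was sequenced in 4 groups of 3 libraries: aDN-DISC1 mutant mice given Δ9-THC, control mice given Δ9-THC, mutant mice given vehicle and control mice given vehicle, all on a C57BL/6 background. THC is the main psychoactive compound of cannabis, and DISC1 is a scaffold protein tied to psychiatric illness. The series title places the exposure in adolescence and the genetic risk in astrocytes, so the mutation is not described as one of oligodendrocytes. Genotype of the control libraries was taken from their titles, and dose, age, sex and the promoter behind the mutant allele are not given in the sources used here. Nothing in the labels says that each library is a separate mouse, so the p-values reflect library-to-library spread, which may be technical.

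Oligodendrocytes are the glia that wrap axons of the central nervous system in myelin, a stack of membrane rich in cholesterol and galactolipids and held together by proteins such as MBP and CNP. They arise from dividing precursors that carry the receptor PDGFRA and the proteoglycan NG2. Commitment is set by OLIG2, and myelin genes are then switched on by SOX10 together with MYRF. In the hippocampus they lie mostly in the fibre tracts, the alveus and fimbria, which border on the ventricle and its choroid plexus.

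Because SOX10 and MYRF act on myelin genes, RefSeq promoter windows of GRCm38.p6 (the assembly of mm10), from 250 bases before to 50 after a start, are shown for 4 sheath protein genes chosen because they hold matches and for Tubb4a, which holds none. Capitals mark matches on either strand to 4 words, the Sox words ACAAAG and ACAATG and the Myrf words CTGGCAC and CTGGTAC, and no matches in these windows overlap. All are written in the direction of transcription, so a match on the opposite strand appears as its reverse complement.
Mag chr7:30914814-30915113, minus strand: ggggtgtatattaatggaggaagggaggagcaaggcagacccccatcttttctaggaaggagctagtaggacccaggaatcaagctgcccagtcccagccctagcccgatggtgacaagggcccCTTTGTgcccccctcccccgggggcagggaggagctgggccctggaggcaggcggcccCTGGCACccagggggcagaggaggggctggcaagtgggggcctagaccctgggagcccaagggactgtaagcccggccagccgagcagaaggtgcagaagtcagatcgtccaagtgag
Cnp chr11:100574689-100574988, plus strand: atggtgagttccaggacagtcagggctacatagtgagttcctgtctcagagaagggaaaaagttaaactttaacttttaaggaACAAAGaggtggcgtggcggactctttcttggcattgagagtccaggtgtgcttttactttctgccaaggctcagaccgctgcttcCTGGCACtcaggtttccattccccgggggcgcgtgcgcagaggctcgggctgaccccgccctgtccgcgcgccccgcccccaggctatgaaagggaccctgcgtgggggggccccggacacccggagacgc
Mobp chr9:120149492-120149791, plus strand: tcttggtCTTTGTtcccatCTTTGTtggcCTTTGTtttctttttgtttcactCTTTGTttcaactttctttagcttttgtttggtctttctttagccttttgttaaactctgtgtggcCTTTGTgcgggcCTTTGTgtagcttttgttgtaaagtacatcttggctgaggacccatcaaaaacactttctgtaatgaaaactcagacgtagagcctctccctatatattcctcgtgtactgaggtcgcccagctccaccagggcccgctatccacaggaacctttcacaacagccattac
Mog chr17:37023349-37023648, minus strand: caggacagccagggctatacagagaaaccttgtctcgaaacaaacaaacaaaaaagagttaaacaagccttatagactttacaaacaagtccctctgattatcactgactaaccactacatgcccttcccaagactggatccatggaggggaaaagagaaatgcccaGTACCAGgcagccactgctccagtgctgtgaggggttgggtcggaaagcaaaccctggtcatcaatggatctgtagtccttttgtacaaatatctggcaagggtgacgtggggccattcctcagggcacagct
Tubb4a chr17:57087551-57087850, minus strand: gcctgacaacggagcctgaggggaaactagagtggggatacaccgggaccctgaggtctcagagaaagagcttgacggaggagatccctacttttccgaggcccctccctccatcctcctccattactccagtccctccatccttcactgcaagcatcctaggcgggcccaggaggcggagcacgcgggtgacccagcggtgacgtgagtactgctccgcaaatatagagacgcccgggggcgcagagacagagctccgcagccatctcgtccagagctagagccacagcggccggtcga
The Mag window holds a Sox word whose first base is 126 bases before the start and a Myrf word at 68. Cnp has the same pair at 167 and 81 bases. Mobp holds 6 copies of ACAAAG, all on the opposite strand and all between 243 and 120 bases before the start. The Mog window has a single Myrf word at 83 bases, and the Tubb4a window holds none of the 4 words. The windows of Cldn11, Mal, Aspa, Ugt8a, Gsn, Ppp1r14a and several other members, and that of another Mag start, held none either. Windows were found for 25 members, with 35 windows in all since some genes have several starts. A word of any of the 4 kinds stood in 48.6% of these, against 33.6% of all 32851 mouse windows of 300 bases and 26.0% of the windows of the genes tested here. CTGGCAC stood in 17.1% of member windows, against 5.0% of all windows and 5.2% of those of the genes tested. ACAAAG stood in 22.9%, against 18.7% and 14.3% in the same order. ACAATG stood in 20.0%, against 12.6% and 7.7%, and CTGGTAC in 2.9%, against 2.2% and 1.9%. Windows of 1 gene can overlap, so the same site can be counted more than once, as in Mag and Gal3st1, which raises the member shares. A match of letters describes the sequence and not a bound site.

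The libraries held 33165903 to 41389957 expected counts. Levels are in CPM, counts per 1e+06 counts of a library after TMM scaling. Mouse Disc1 had a median of 2.42 CPM in the 6 mutant and 2.44 CPM in the 6 control libraries, and their ranges overlapped, so it did not mark the genotype. Markers of tissue next to the hippocampus differed between libraries. The summed level of 16 choroid plexus genes was 3310 to 11285 CPM in 6 libraries, namely mutant THC 1 and 3, control THC 2 and all 3 mutant vehicle libraries, and 66.7 to 142 CPM in the other 6. The 12 striatal neuron genes summed to 5329 CPM in mutant THC 3 and 719 CPM in mutant vehicle 3, against 258 to 298 CPM elsewhere. THC libraries carry the label numbers 1 to 5 and 12 and vehicle libraries 6 to 11. Apart from number 12 (mutant THC 2), this order and the treatment coincide, and the part of the order was not tested.

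The labelled tissue showed its oligodendrocyte markers at high level in every library. Levels between genes are compared per kilobase of transcript, as the mean over 12 libraries. Mbp, the myelin basic protein that compacts the membrane, led at 1146 CPM per kilobase. Mal, a lipid raft protein of myelin, followed at 303 and Cnp, the phosphodiesterase of non-compact myelin, at 222. Car2 (carbonic anhydrase), Qdpr (a reductase that recycles tetrahydrobiopterin), Mobp (a compact myelin protein), Plekhb1, Cldn11 (the tight junction protein of myelin) and Mag (an adhesion protein on the side that faces the axon) lay between 104 and 130. The factors Olig1 (35.0), Sox10 (10.4), Nkx6-2 (9.11), Olig2 (6.45) and Myrf (5.04) were below each of the genes just named. Of the precursor genes, Pdgfra was at 15.8 and Cspg4, which encodes NG2, at 2.79. Enpp6, a choline phosphodiesterase of newly forming oligodendrocytes, was lowest at 2.57 CPM per kilobase. Genes of Schwann cells, which make peripheral myelin, summed to 24.4 to 33.7 CPM.

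Sheath protein genes varied together from library to library. Mbp was at 2861, 2035 and 3228 CPM in mutant THC 1 to 3, 1989, 2407 and 1510 CPM in control THC, 2944, 3147 and 3183 CPM in mutant vehicle, and 2688, 2795 and 2089 CPM in control vehicle. Mutant THC 3 was thus the highest library and control THC 3 the lowest. Mog, a glycoprotein of the outer myelin face, was at 94.5, 66.7 and 110 CPM in mutant THC, 60, 75.6 and 53.6 CPM in control THC, 88.2, 80.8 and 104 CPM in mutant vehicle, and 73.7, 69.4 and 59.1 CPM in control vehicle. Mag was at 275, 208 and 321 CPM in mutant THC, 193, 251 and 161 CPM in control THC, 285, 297 and 306 CPM in mutant vehicle, and 254, 281 and 217 CPM in control vehicle. In both genes the same libraries stood at the ends. Mobp was at 329, 242 and 417 CPM in mutant THC, 224, 267 and 199 CPM in control THC, 336, 344 and 358 CPM in mutant vehicle, and 281, 292 and 210 CPM in control vehicle. Cnp was at 603, 452 and 711 CPM in mutant THC, 411, 483 and 349 CPM in control THC, 568, 592 and 622 CPM in mutant vehicle, and 540, 512 and 428 CPM in control vehicle. Within each group the 3 libraries kept nearly the same order for these 5 genes, and in all 5 the mutant vehicle libraries were above the control vehicle libraries. The other sheath genes ranged over 322 to 668 CPM (Mal), 146 to 288 CPM (Cldn11), 130 to 269 CPM (Tspan2), 54.6 to 131 CPM (Ermn) and 11.6 to 21.7 CPM (Hapln2).

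Enzymes of myelin lipids followed the same course. Ugt8a, which makes galactosylceramide, was at 137, 104 and 167 CPM in mutant THC, 80.2, 98.6 and 73.4 CPM in control THC, 120, 131 and 173 CPM in mutant vehicle, and 110, 108 and 97.1 CPM in control vehicle. Aspa, which frees acetate from N-acetylaspartate for lipid synthesis, was at 34.3, 22.5 and 37.1 CPM in mutant THC, 22.8, 27.3 and 19.7 CPM in control THC, 31.7, 35.5 and 39.7 CPM in mutant vehicle, and 30.3, 30.8 and 24.0 CPM in control vehicle. The low library of each group was the same for Aspa as for Mbp. Enpp6 was at 12.7, 12.1 and 17.6 CPM in mutant THC, 9.98, 11.5 and 7.54 CPM in control THC, 13.5, 14.6 and 16.8 CPM in mutant vehicle, and 13.8, 12.5 and 10.7 CPM in control vehicle. Fa2h, which hydroxylates myelin fatty acids, ranged over 14.0 to 24.9 CPM.

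Transcription factors varied less. Myrf, the membrane-tethered factor that starts myelin gene expression, was at 17.4, 15.5 and 17.6 CPM in mutant THC, 14.0, 17.3 and 15.1 CPM in control THC, 17.1, 20.6 and 15.8 CPM in mutant vehicle, and 14.6, 21.9 and 15 CPM in control vehicle. Sox10, which acts with Myrf on myelin genes, was at 32.2, 23.9 and 33.4 CPM in mutant THC, 23.9, 30.1 and 19.2 CPM in control THC, 29.2, 29.9 and 29.3 CPM in mutant vehicle, and 27.8, 33.3 and 26.0 CPM in control vehicle. For both factors the vehicle groups overlapped. Olig1, which promotes maturation, was at 82.6, 72.3 and 95.7 CPM in mutant THC, 70.2, 77.4 and 59.4 CPM in control THC, 80.5, 75.8 and 78.2 CPM in mutant vehicle, and 73.0, 76.5 and 66.0 CPM in control vehicle. Olig2, which specifies the lineage, was at 15.3, 13.3 and 17.2 CPM in mutant THC, 14.8, 17.2 and 12.7 CPM in control THC, 18.6, 18.5 and 17.3 CPM in mutant vehicle, and 17.9, 17.5 and 15.5 CPM in control vehicle. Its mutant THC libraries all lay below its mutant vehicle libraries, but the nearest, at 17.2 and 17.3 CPM, were almost level. Nkx6-2, a homeodomain factor of myelinating cells, ranged over 9.78 to 19.9 CPM.

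Among receptors and enzymes, Gpr37, a receptor of the oligodendrocyte lineage, kept to a narrow range of 102 to 135 CPM. Lpar1, a receptor for lysophosphatidic acid, ranged over 43.1 to 83.9 CPM and Adamts4, a protease that cuts matrix proteoglycans, over 22.6 to 42.8 CPM. Qdpr was at 123 to 213 CPM and Plekhb1 at 176 to 294 CPM. Values of Gsn, Car2, Ppp1r14a, Ndrg1, Cryab, Tmem125 and Tubb4a stand with the comparisons below.

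The 2 precursor genes among the members did not share the course of the sheath genes. Pdgfra was at 119, 93.8 and 96.6 CPM in mutant THC, 102, 101 and 96.8 CPM in control THC, 116, 116 and 110 CPM in mutant vehicle, and 115, 102 and 101 CPM in control vehicle. Cspg4 was at 21.5, 21.2 and 18.9 CPM in mutant THC, 20.1, 24.1 and 21.7 CPM in control THC, 20.5, 25.8 and 19.9 CPM in mutant vehicle, and 23.8, 30.7 and 23.5 CPM in control vehicle. Mutant THC 3, the highest library for Mbp, was the lowest for Cspg4. Over 19 further precursor genes, the mean log2 CPM ran from 4.08 in control THC 1 to 4.38 in mutant THC 3, with control THC 3 at 4.14. Their highest library was thus that of Mbp, and their lowest was not.

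**Figure D1:**
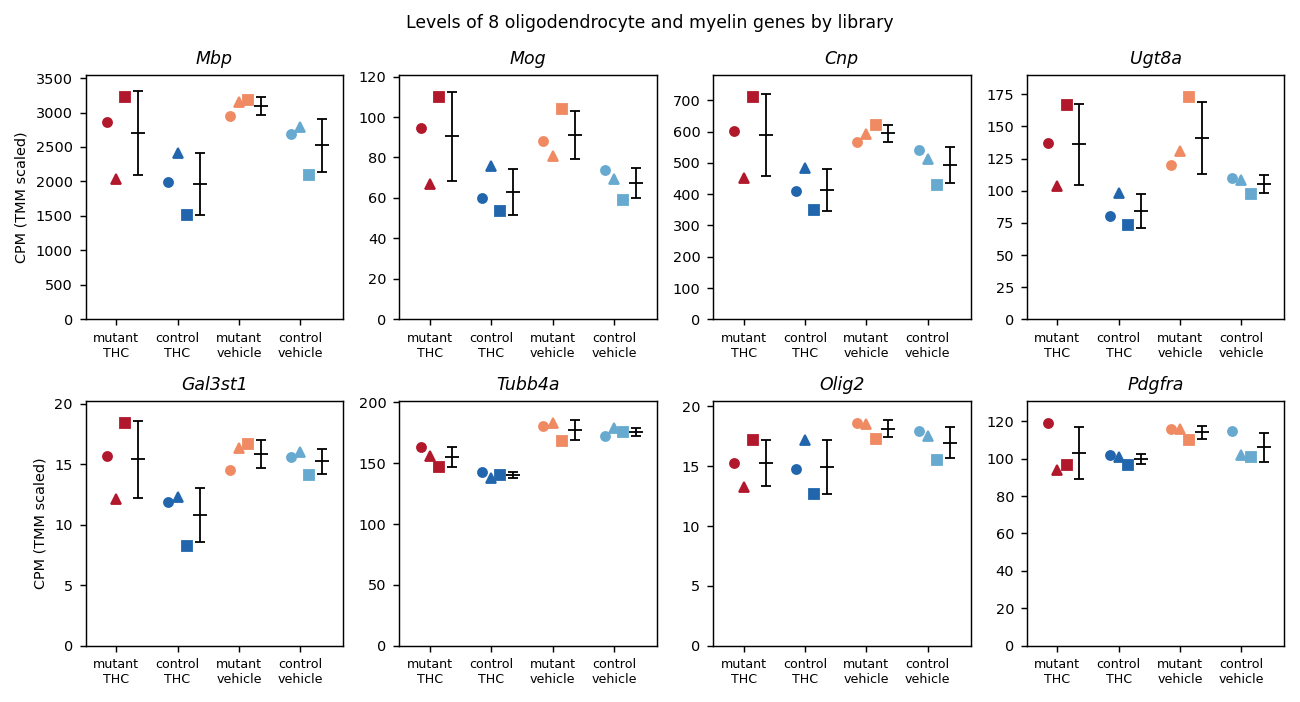
TMM-scaled CPM of 8 genes in the 12 libraries (circle, triangle and square for replicates 1, 2 and 3 of a group), with the mean and SD of the 3 libraries in black; axes start at 0. Mbp ran over 1510 to 3228 CPM while Pdgfra stayed between 93.8 and 119 CPM, and the 6 THC libraries of Tubb4a all lay below the 6 vehicle libraries. The share of all genes with such a separation was not counted.

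The spread over the 12 libraries was wide for a set of well expressed genes. The highest library was 1.26 to 2.40 times the lowest, with a median of 2.00 over the 34 members against 1.31 over the 10257 genes at a mean of 10 CPM or more. By role, the median was 2.24 for lipid and membrane enzymes, 2.05 for sheath proteins, 1.93 for receptors, enzymes, cytoskeletal and stress proteins, 1.61 for transcription factors and 1.44 for the 2 precursor genes. Ermn, a cytoskeletal protein of late oligodendrocytes, had the widest ratio (2.40) and Pdgfra the narrowest (1.26). Control THC 3 was the lowest of the 12 libraries for 28 of 34 members, against 13.4% of all genes tested. Mutant THC 3 was the highest for 20 of 34 members, against 15.9% of all genes. Summed over the 34 genes, the level was 7404, 5415 and 8290 CPM in mutant THC, 5199, 6136 and 4287 CPM in control THC, 7331, 7744 and 8131 CPM in mutant vehicle, and 6662, 6751 and 5444 CPM in control vehicle.

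**Figure D2:**
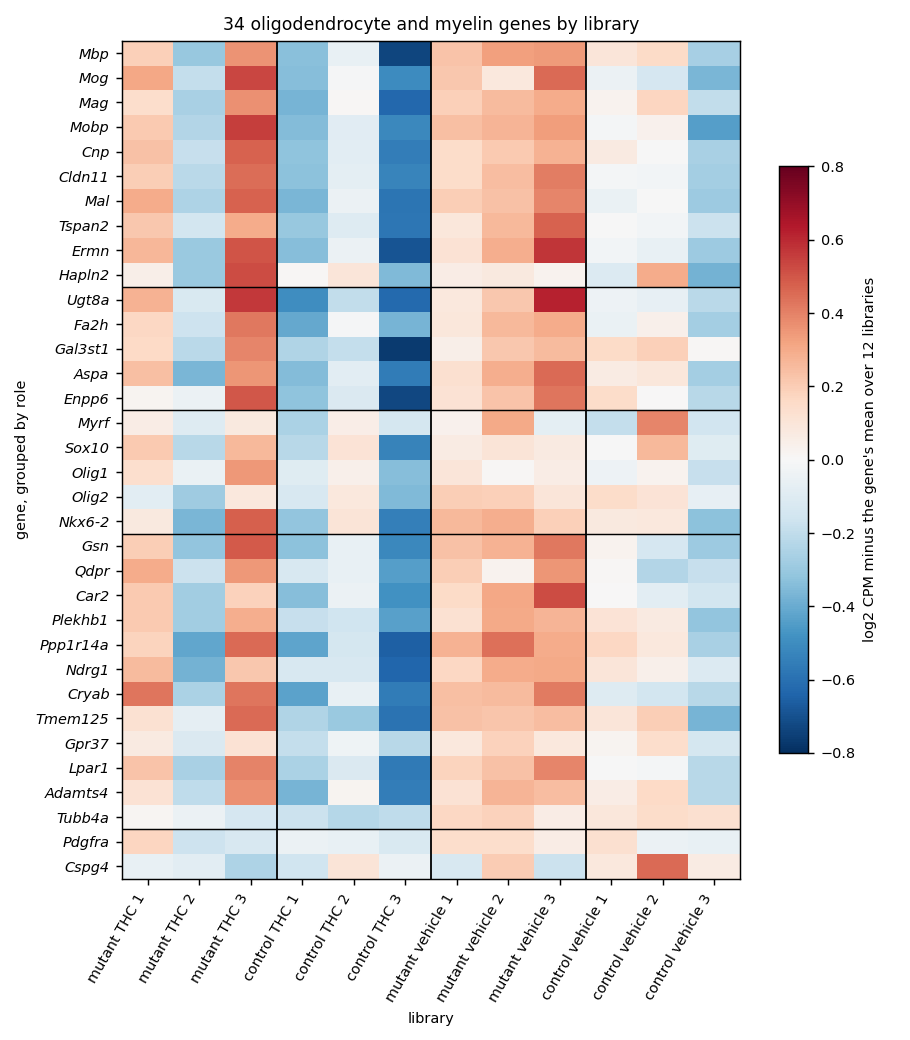
Log2 CPM of each of the 34 genes minus its own mean over the 12 libraries, with genes in rows by role and libraries in columns by group. Most rows share the pattern of Mbp, with control THC 3 lowest in 28 of 34 genes and mutant THC 3 highest in 20. Myrf, Tubb4a, Pdgfra and Cspg4 share neither of these ends, and Fa2h and Hapln2 share only the highest library.

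The gap between the sheath genes and the 2 precursor genes was widest in mutant THC 3 and narrowest in control THC 3. The mean log2 CPM of the 2 precursor genes minus that of the 10 sheath genes was -2.28, -2.01 and -2.76 in mutant THC, -1.92, -2.06 and -1.64 in control THC, -2.28, -2.18 and -2.54 in mutant vehicle, and -2.01, -1.96 and -1.83 in control vehicle. All 3 mutant vehicle libraries were below the control vehicle libraries. For the 5 transcription factors the same difference spanned -3.43 to -2.95, and for the lipid enzymes it stayed within -3.13 to -2.96. In bulk tissue, fewer cells of a type and less RNA per cell cannot be told apart, so these differences do not say whether there were fewer oligodendrocytes or less myelin RNA in each.

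**Figure D3:**
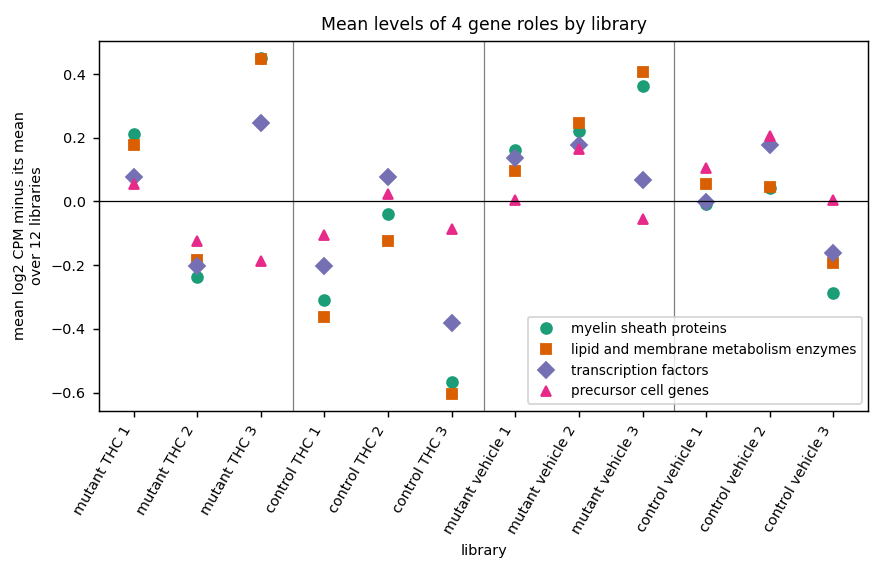
Mean log2 CPM of the genes of 4 roles in each library, minus its mean over the 12 libraries. Sheath and lipid genes moved as a pair, with means of 8.18 (sheath) and 5.12 (lipid) in mutant THC 3 and 7.16 and 4.07 in control THC 3, whereas the precursor genes were at 5.42 and 5.52 in these libraries.

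Within the THC groups, libraries high in choroid genes had more of the 34 genes. Within mutant THC the summed level was 7404 and 8290 CPM in the libraries high in choroid genes and 5415 CPM in the third. Within control THC it was 6136 CPM in the high library and 5199 and 4287 CPM in the others. Across groups the order was kept in part. The 6 libraries high in choroid genes held 6136 to 8290 CPM of the 34 genes, and the other 6 held 4287 to 6751 CPM. Mutant THC 3, which also held 5329 CPM of striatal genes, had the highest sum of the 34 genes. Its choroid genes summed to 3310 CPM, the least of the 6 high libraries. Control vehicle 1 and 2, low in choroid genes, had 6662 and 6751 CPM of the 34 genes, above control THC 2. All 3 mutant vehicle libraries were high in choroid genes and no control vehicle library was, so under vehicle the choroid level and the genotype cannot be told apart. The role of tissue carried along in dissection was not tested.

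**Figure D4:**
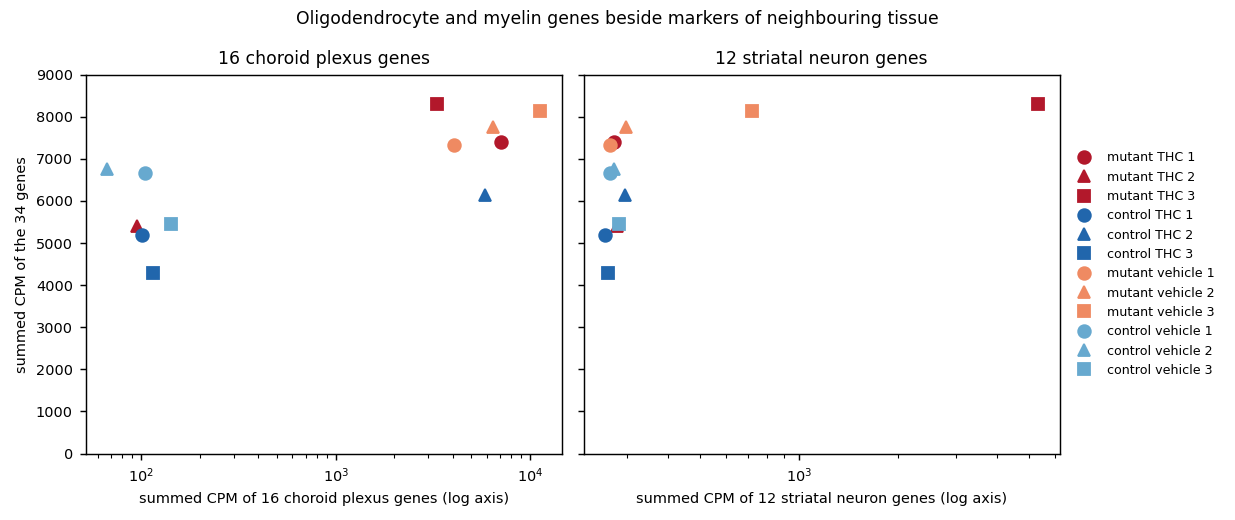
Summed CPM of the 34 genes (from 0) against the summed CPM of 16 choroid plexus genes (left) and 12 striatal neuron genes (right) in the 12 libraries, both on log axes. The 6 libraries above 3000 CPM of choroid genes held 6136 to 8290 CPM of the 34 genes and the other 6 held 4287 to 6751 CPM, and mutant THC 3 alone held 5329 CPM of striatal genes.

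THC in control mice went with lower values throughout the set, but no member passed the threshold. All 34 log2 fold changes were below 0, with a median of -0.22 against 0.00 over the 15802 genes tested. Of all genes 0% passed the adjusted threshold of 0.05 (edgeR quasi-likelihood test, Benjamini-Hochberg). By role the median was -0.32 for lipid enzymes, -0.22 for receptors, enzymes, cytoskeletal and stress proteins, -0.21 for sheath proteins, -0.18 for transcription factors and -0.16 for precursor genes. Before adjustment 2 members were under 0.05 and lower, against 3.45% of all genes (3.55% were higher). In 3 of 34 members, Tubb4a, Gal3st1 and Ndrg1, every control THC library was below every control vehicle library. This was close to the share over all genes, 8.07% (8.3% the other way).

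Tubb4a, a beta tubulin of oligodendrocytes and neurons, was at 143, 138 and 140 CPM in control THC and 172, 179 and 176 CPM in control vehicle. The groups were far apart for their spread, at 140 ± 2.13 and 175 ± 3.54 CPM (SD, n = 3 each), with a log2 fold change of -0.32 ± 0.05 (SE) and an adjusted p of 0.69 by edgeR. It had the second smallest unadjusted p of all genes, and DESeq2 called it at an adjusted p of 1.1e-06. Gal3st1, the sulfotransferase that turns galactosylceramide into sulfatide, was at 11.9, 12.3 and 8.24 CPM in control THC against 15.6, 16 and 14.1 CPM in control vehicle (log2 fold change -0.49 ± 0.17, adjusted p = 0.70). Its groups did not overlap. Tmem125, a membrane protein enriched in oligodendrocytes, was at 8.39, 8.07 and 6.59 CPM in control THC and 10.6, 11.4 and 7.68 CPM in control vehicle, and the groups overlapped (-0.36 ± 0.17, adjusted p = 0.71). Ppp1r14a, an inhibitor of myosin phosphatase, was at 9.31, 11.3 and 7.91 CPM in control THC and 14.0, 13.2 and 10.4 CPM in control vehicle (-0.40 ± 0.21, adjusted p = 0.74). Enpp6 was at -0.35 ± 0.18 (adjusted p = 0.73), Mbp at -0.36 ± 0.19 (adjusted p = 0.74) and Mog at -0.09 ± 0.18 (adjusted p = 0.94). Ndrg1, whose human counterpart is mutated in a neuropathy of peripheral myelin, was at 97.9, 97.7 and 68.9 CPM in control THC and 114, 110 and 99.1 CPM in control vehicle.

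Of the 3 control THC libraries, replicate 2 is high in choroid genes and had the highest level of 30 members, and replicate 3 had the lowest level of 30. Leaving out control THC 2 gave a member median of -0.33 and 12 members under 0.05 before adjustment, while leaving out control THC 3 gave -0.12 and 1 member. That count came to 7 when control vehicle 3 was dropped, 6 when mutant THC 2 was dropped and 5 when mutant THC 3 was dropped. The share of all genes under 0.05 was not counted with libraries left out. Among libraries low in choroid genes, 2 control THC libraries set against 3 control vehicle libraries gave a median log2 difference of -0.33, with 34 of 34 members below 0. A term for high choroid level gave -0.38, and 28 members under 0.05 before adjustment, against 9.35% of all genes, with none past the adjusted threshold. Meningeal and fibroblast genes went the other way, with a median of 0.70 and 12 of 12 above 0, and choroid genes had a median of 3.50. Their part in the result was not tested.

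THC in mutant mice gave small differences, mostly below 0, and the sign of their median depended on mutant THC 2. The median log2 fold change of the members was -0.10 against -0.01 over all genes, and 31 of 34 were below 0. No member passed the threshold, and 0% of all genes did by edgeR. Before adjustment 1 member was under 0.05 and lower, against 3.2% of all genes (2.53% higher). In 2 members, Tubb4a and Olig2, the groups did not overlap and mutant THC was lower, against 4.4% of all genes (4.07% higher). Tubb4a was at 163, 156 and 147 CPM in mutant THC and 181, 183 and 168 CPM in mutant vehicle (log2 fold change -0.19 ± 0.05, adjusted p = 0.81). Together with the control mice, all 6 THC libraries of Tubb4a (138 to 163 CPM) were below all 6 vehicle libraries (168 to 183 CPM). Tubb4a was the only 1 of the 34 members so separated, and the share over all genes was not counted. Olig2 averaged 15.3 ± 1.93 CPM in mutant THC and 18.1 ± 0.712 CPM in mutant vehicle (SD, n = 3 each), a log2 fold change of -0.25 ± 0.12 (adjusted p = 0.81). Its nearest libraries, mutant THC 3 and mutant vehicle 3, were almost level.

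Car2, the carbonic anhydrase of oligodendrocytes, was at 264, 188 and 259 CPM in mutant THC and 253, 283 and 327 CPM in mutant vehicle (-0.28 ± 0.15, adjusted p = 0.81). Pdgfra was at -0.15 ± 0.09 (adjusted p = 0.81) and Ndrg1 at -0.20 ± 0.17 (adjusted p = 0.85). The members above 0 were Olig1 (0.10 ± 0.11), Hapln2, a link protein of the nodal matrix (0.08 ± 0.21), and Sox10 (0.02 ± 0.17). Mutant THC 2, the library of its group with little choroid signal, had the lowest level of 32 of 34 members in the group. Without it the median was 0.04 and 11 of 34 members were below 0; without mutant THC 3 it was -0.24 and 34 of 34 were below 0. Dropping mutant vehicle 1, mutant THC 1, control THC 2, control THC 3 or mutant THC 3 gave 2 members under 0.05 in place of 1. Between the 2 mutant THC and 3 mutant vehicle libraries high in choroid genes, the median log2 difference was 0.03. Other tissue markers differed in the same comparison, with medians of 2.56 for 12 striatal genes, -0.77 for 12 meningeal genes and -0.99 for 16 choroid genes. The median was -0.42 for 10 ependymal genes and -0.3 for 9 thalamic neuron genes. The part of these tissues was not tested.

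Under vehicle, mutant libraries had higher levels of nearly the whole set than control libraries, again with no member past the threshold. The median log2 fold change was 0.28 against -0.01 over all genes, and 33 of 34 were above 0, the exception being Cspg4 at -0.24 ± 0.13 (adjusted p = 0.35). A single gene, or 0.00633% of those tested, passed by edgeR. Before adjustment 8 members were under 0.05 and higher, against 11.2% of all genes (6.63% lower). In 22 of 34 members every mutant vehicle library was above every control vehicle library, against 15.3% of all genes (12.7% lower). By role this held for 9 of 10 sheath proteins, 3 of 5 lipid enzymes, 1 of 5 transcription factors, 9 of 12 receptors, enzymes, cytoskeletal and stress proteins and 0 of 2 precursor genes.

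Car2 was at 253, 283 and 327 CPM in mutant vehicle and 228, 215 and 206 CPM in control vehicle, with no overlap (log2 fold change 0.41 ± 0.15, adjusted p = 0.19 by edgeR). Cryab, the small heat shock protein alpha B-crystallin, was at 73.1, 73.7 and 82.4 CPM in mutant vehicle and 57.5, 55.8 and 52.9 CPM in control vehicle (0.46 ± 0.17, adjusted p = 0.21). Gsn, the actin-severing protein gelsolin, was at 165, 170 and 188 CPM in mutant vehicle and 143, 128 and 115 CPM in control vehicle (0.44 ± 0.18, adjusted p = 0.25). Libraries of these 3 genes were thus fully separated by genotype, and equally by choroid level, which coincides with genotype under vehicle. When only these 2 groups were fitted, Cryab (0.47, adjusted p = 0.017) and Gsn (0.44, adjusted p = 0.041) passed. Over all genes, that fit called far more than the fit of 4 groups, with both counts given at the end. Tspan2, a tetraspanin of early myelin, was at 207, 232 and 269 CPM in mutant vehicle and 194, 191 and 172 CPM in control vehicle (0.34 ± 0.14, adjusted p = 0.25). Ugt8a was at 0.43 ± 0.18 (adjusted p = 0.26), Mog at 0.44 ± 0.18 (adjusted p = 0.26), Mbp at 0.29 ± 0.19 (adjusted p = 0.45), Sox10 at 0.02 ± 0.17 (adjusted p = 0.96) and Tubb4a at 0.02 ± 0.05 (adjusted p = 0.89).

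In the same comparison the median over the 16 choroid plexus genes was 5.51 on the log2 scale, all 16 with no overlap between the groups. Ependymal genes had a median of 1.41 (7 of 10 under 0.05 before adjustment), meningeal genes 0.83 (6 of 12) and striatal genes 0.95 (0 of 12). Genotype and choroid level coincide here, so the members' difference cannot be told apart from the choroid level. With a term for high choroid level, which rests on the THC groups, the members' median was -0.11 and 32 of 34 were below 0, Sox10 at -0.45 ± 0.15, Mbp at -0.23 ± 0.18 and Cryab at -0.10 ± 0.11, and 1 member was under 0.05 before adjustment, against 4.52% of all genes. The 8 members under 0.05 became 0 when mutant vehicle 3 or control vehicle 3 was dropped. The count was 3 on dropping control vehicle 2 or control THC 1 and 5 on dropping control vehicle 1. It was 13 on dropping control THC 2 or mutant THC 3, and 16 on dropping mutant THC 2. No share over all genes was counted in these fits.

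Under THC, mutant libraries again had higher values on average for nearly the whole set, but the groups mostly overlapped. The median log2 fold change of mutant THC over control THC was 0.42 against 0.01 over all genes, and 33 of 34 members were above 0, with Cspg4 at -0.10 ± 0.13. No member passed the threshold, and 0.00633% of all genes did by edgeR. Before adjustment 25 members were under 0.05 and higher, against 4.71% of all genes (4.27% lower). They were 9 of 10 sheath proteins, 5 of 5 lipid enzymes, 1 of 5 transcription factors and 10 of 12 receptors, enzymes, cytoskeletal and stress proteins. The groups did not overlap in only 4 members, Ugt8a, Enpp6, Tmem125 and Tubb4a, against 4.83% of all genes (5.7% lower). Mutant THC 2 was below control THC 2 in 30 of 34 members.

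Ugt8a averaged 136 ± 31.5 CPM in mutant THC and 84.1 ± 13.0 CPM in control THC (SD, n = 3 each), a log2 fold change of 0.70 ± 0.18 (adjusted p = 0.55 by edgeR), the largest of the set. Tmem125 was at 10.8, 9.44 and 13.6 CPM in mutant THC and 8.39, 8.07 and 6.59 CPM in control THC (0.55 ± 0.17, adjusted p = 0.55). Cryab was at 83.1, 51.7 and 83.1 CPM in mutant THC and 45.9, 59.3 and 41.9 CPM in control THC (0.57 ± 0.17, adjusted p = 0.55). Here mutant THC 2 lay within the range of the control libraries. Cnp was at 0.51 ± 0.16, Tspan2 at 0.45 ± 0.14, and Mbp at 0.46 ± 0.19, each with an adjusted p of 0.55. Olig2 was at 0.03 ± 0.12 (adjusted p = 0.94), Myrf at 0.12 ± 0.16 (adjusted p = 0.79) and Pdgfra at 0.05 ± 0.09 (adjusted p = 0.86).

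Markers of other cells differed too. The 12 striatal genes had a median of 3.61, with 12 of 12 under 0.05 before adjustment and 1 not overlapping. Their sum was high in 1 library, mutant THC 3 (5329 CPM). Mutant THC 1 and 2, at 274 and 281 CPM, lay within the control THC range of 258 to 296 CPM. Hippocampal excitatory neuron genes had a median of -0.23 (4 of 14 under 0.05 and lower), meningeal genes -0.47 (2 of 12) and choroid genes 0.81 (0 of 16). Their part in the members' difference was not tested.

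This comparison uses the same control THC libraries as the THC effect in control mice, so low values in those libraries enter both. Choroid genes were high in 2 mutant THC libraries and 1 control THC library. Between the libraries high in them (2 mutant THC, 1 control THC) the members' median log2 difference was 0.37, with 32 of 34 above 0. Between the libraries low in them (1 mutant THC, 2 control THC) it was 0.16, with 31 of 34 above 0. With the choroid term the median was 0.25, and 16 members were under 0.05 before adjustment, against 4.46% of all genes. In the fit without that term, dropping control THC 1 gave 14 such members, mutant THC 1 gave 12 and control THC 3 gave 8. Dropping mutant THC 3, the library with striatal signal, gave 6 and a median of 0.27. For libraries left out, the share over all genes was not counted.

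**Figure D5:**
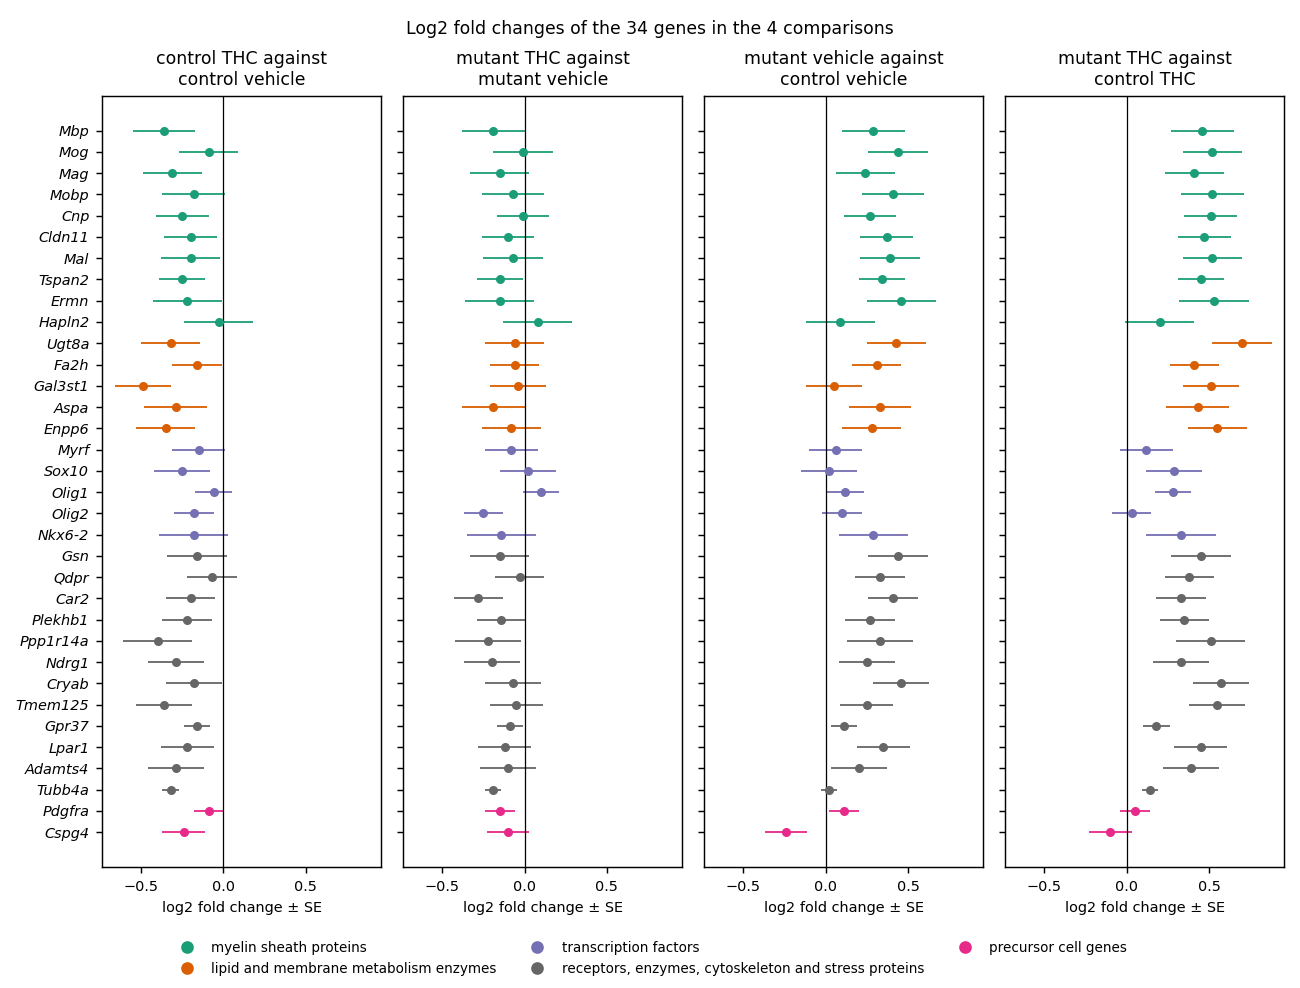
Log2 fold change with its SE for each of the 34 genes, by role, in 4 comparisons, each named with the group on top of the ratio first. Values lie below 0 for 34 of 34 genes for THC in control mice and 31 of 34 in mutant mice, and above 0 for 33 of 34 in each genotype comparison; the zero line is drawn in black.

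The interaction, which asks whether THC acted differently in mutant and control mice, gave no member past the threshold and no member under 0.05 before adjustment (0% of all genes passed, and 4.42% were lower and 2.16% higher before adjustment, by edgeR). The median was 0.10 against 0.00 over all genes, with 31 of 34 above 0. Gal3st1 had the largest value at 0.46 ± 0.24 (adjusted p = 0.77), from 15.7, 12.1 and 18.4 CPM in mutant THC against 14.5, 16.3 and 16.7 CPM in mutant vehicle, beside the control values above. Tmem125 was at 0.31 ± 0.23 (adjusted p = 0.81), Sox10 at 0.27 ± 0.23 (adjusted p = 0.84), Enpp6 at 0.27 ± 0.25 (adjusted p = 0.85), Tubb4a at 0.13 ± 0.08 (adjusted p = 0.77) and Mbp at 0.17 ± 0.27 (adjusted p = 0.92). The difference in THC effect between genotypes was therefore not shown for any member. The median was -0.01 when mutant THC 3 was dropped, 0.01 when control THC 3 was, 0.26 when mutant THC 2 was, and 0.40 with the choroid term, where 16 members were under 0.05 before adjustment, against 8.34% of all genes, and the smallest adjusted p was 0.55. A single member was under 0.05 without control vehicle 3, control THC 2, mutant THC 2 or mutant THC 3.

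Further genes of the lineage were listed apart from the 34. Of 46 further myelin and mature oligodendrocyte genes, none passed in any comparison. Their median log2 fold change was -0.19 for THC in control mice (42 of 46 below 0), -0.12 for THC in mutant mice (36 below 0), 0.21 for genotype under vehicle (42 above 0) and 0.33 for genotype under THC (43 above 0, 21 under 0.05 before adjustment against 4.71% of all genes). For THC in control mice the smallest p-values were those of Sirt2, a deacetylase (-0.34 ± 0.12), and Ninj2, an adhesion protein (-0.51 ± 0.20), each with an adjusted p of 0.70. For THC in mutant mice they were those of Tcf7l2, a Wnt pathway factor (-0.52 ± 0.29), and Cdc42ep1 (-0.20 ± 0.11), each with an adjusted p of 0.81. Cd9, a tetraspanin, was at 64.6, 72.5 and 93.0 CPM in mutant vehicle and 57.1, 49.6 and 47.9 CPM in control vehicle (0.57 ± 0.17, adjusted p = 0.16). Elovl7, a fatty acid elongase, had the largest value of the list under vehicle (1.76 ± 0.53, adjusted p = 0.17). Its level was 45.4 to 87.8 CPM in the 6 libraries high in choroid genes and 17.8 to 23.3 CPM in the other 6. Under THC, Hhip, an inhibitor of hedgehog signalling, was at 21.8, 16.6 and 30.8 CPM in mutant THC and 14.7, 16.5 and 13.9 CPM in control THC (0.61 ± 0.18, adjusted p = 0.55), and the nearest libraries of the groups were almost level. Gjb1, the gap junction protein connexin 32, was at 0.72 ± 0.21 (adjusted p = 0.55).

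For THC in control mice, 15 of 19 further precursor genes were below 0 and 4 above, with a median of -0.21 and none past the threshold. Before adjustment 7 were under 0.05 and lower, against 3.45% of all genes, and 7 did not overlap and were lower, against 8.07%. For THC in mutant mice the median was 0.00, with 10 above and 9 below 0. Pcdh15, a protocadherin, was at -0.37 ± 0.11 (adjusted p = 0.70). Under vehicle the same list was even between genotypes at a median of 0.02, with 10 above and 9 below 0, unlike the mature list in value, though the difference between the lists was not tested. Between genotypes under THC the median was 0.19, with 7 of 19 under 0.05 before adjustment, against 4.71% of all genes. Sox6, which holds precursors undifferentiated, was at 32.0, 27.1 and 27.8 CPM in mutant THC and 23.2, 24.7 and 22.1 CPM in control THC (0.31 ± 0.08, adjusted p = 0.55). Vcan, a matrix proteoglycan, was at 40.9, 41.1 and 46.7 CPM in mutant THC and 36.5, 34.9 and 37.2 CPM in control THC (0.24 ± 0.07, adjusted p = 0.55). Neither gene's groups overlapped. Several genes of this list are also active in neural precursors or astrocytes.

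Cholesterol, which myelin needs in quantity, is made by enzymes that neurons and astrocytes express as well. The 22 genes of its synthesis had a median of 0.20 for genotype under THC, with 10 under 0.05 and higher before adjustment, against 4.71% of all genes, and 10 not overlapping and higher, against 4.83%. None passed the threshold. Msmo1, a sterol C4 demethylase, was at 153, 119 and 137 CPM in mutant THC and 113, 108 and 96.8 CPM in control THC (0.37 ± 0.10, adjusted p = 0.55). Mvd, a decarboxylase of the mevalonate pathway, was at 22.9, 20.1 and 20.2 CPM in mutant THC and 17.5, 18.4 and 15.1 CPM in control THC (0.31 ± 0.09, adjusted p = 0.55). In both genes every mutant THC library was above every control THC library, including mutant THC 2. The list's median was 0.05 for genotype under vehicle, 0.09 for THC in mutant mice and -0.06 for THC in control mice. Hsd17b7, a sterol ketoreductase, was at 34.4, 36.3 and 30.8 CPM in mutant THC and 29.6, 27.0 and 29.0 CPM in mutant vehicle (0.25 ± 0.07, adjusted p = 0.81).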

How the data were processed

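Per the labels' protocols, hippocampal RNA was depleted of ribosomal RNA and read from both ends, with 3 libraries in each of 4 groups. The authors deposited RSEM expected counts per gene, not scaled for depth or length, and per the file headers they were made on RefSeq transcripts of mm10. Tools in the submitters' processing notes are RSEM 1.2.21, Bowtie2 2.2.2, edgeR 3.10.2, CASAVA 1.8.4 and FastQC. Between 27.2% and 29.4% of values per library were not whole, as RSEM shares ambiguous reads, and no source used here states whether counting used strand. All 12 columns matched a sample, and 235 of 23382 rows found no symbol (0.73% of counts).

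Expected counts were rounded, filtered with filterByExpr (15802 genes tested, all 34 members among them) and scaled by TMM (factors 0.989 to 1.012). The test was edgeR 4.0.16 (glmQLFit, robust; R 4.3.3) on 4 group means with 8 residual degrees of freedom, adjusted over all genes by Benjamini-Hochberg at 0.05. The code was tested on simulated data. SE is the log2 fold change divided by the root of the F statistic. Mean log2 CPM used a prior count of 2, and transcript lengths are means over GENCODE vM21. Alternatives were DESeq2 1.42.0, limma-voom (limma 3.58.1), other scaling, no filter, fits of 2 groups and libraries left out. A term for libraries above 1000 CPM of choroid genes was added after seeing the data. Members and lists were chosen with earlier results of these data known. Values in every library are given for 14 genes fixed by name and, in each comparison, for the 5 members with the smallest p-values or where the sentence turns on them. Other list genes were the 2 with the smallest p-values in the comparisons described, and some of these are not reported here. The promoter windows printed were chosen after the matches were seen.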

Additional observations from a re-analysis of the deposited data

How the results depend on the processing

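No paired analysis was possible because the replicate numbers were given in accession order and the labels share no number between groups. Members past the adjusted threshold were 0 in all 5 comparisons, also with limma-voom, other size factors, library totals, no filter and each library left out, but DESeq2 called 1 for THC in control mice (Tubb4a) and the fit of 2 groups called 2 for genotype under vehicle (Cryab and Gsn). Genes called by DESeq2 were 12 for THC in control mice, 3 for THC in mutants, 781 for genotype under vehicle, 7 for genotype under THC and 34 for the interaction, against 0, 0, 1, 1 and 0 by edgeR. For the genotype comparisons limma-voom called 0 and 0, fits of 2 groups 523 under vehicle and 0 under THC, and leaving out control THC 2 and mutant THC 3 together 0 and 0, with 1 gene then called for THC in controls. The choroid term gave 0 under vehicle. With each library left out, genes called ran from 0 to 3 for THC in mutants, 0 to 6 and 0 to 2 for genotype under vehicle and under THC, and 0 to 10 for the interaction.

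Members under 0.05 before adjustment, in the same order of comparisons, ran from 1 to 12, 1 to 2, 0 to 16, 6 to 29 and 0 to 1 with each library left out. Fits of 2 groups gave 4 for THC in controls, 22 for genotype under vehicle and 11 under THC. Without both libraries the counts were 20 for THC in controls, 6 for THC in mutants and 13 for genotype under vehicle. For fits of 2 groups and with libraries left out, the share of all genes under 0.05 was not counted. A change in these counts is therefore not read as a result about the members. The choroid term gave 28 for THC in controls, 1 and 16 for genotype under vehicle and THC, and 16 for the interaction. Median log2 fold changes with each library left out ran from -0.33 to -0.12, -0.24 to 0.04, 0.18 to 0.35, 0.27 to 0.57 and -0.01 to 0.26. The choroid term moved them to -0.11 for genotype under vehicle and 0.40 for the interaction. With it 32 of 34 members were below 0 for genotype under vehicle, against 1 of 34 as reported. Among the named members whose reported value exceeded its SE, 13 changed sign, to -0.23 (Mbp), -0.08 (Mog), -0.27 (Mag), -0.07 (Mobp), -0.18 (Cnp), -0.02 (Ugt8a), -0.19 (Aspa), -0.16 (Olig1), -0.08 (Enpp6), -0.01 (Car2), -0.10 (Cryab), -0.07 (Gsn) and -0.02 (Tspan2). The cause of these shifts was not tested. Non-overlap counts were not repeated with libraries left out, since smaller groups overlap less by construction.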
